A study of Mus musculus with 24 samples.

Results

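The AP-1 genes described here are Fos, Fosb, Fosl1, Fosl2, Jun, Junb, Jund, Batf, Batf3 and Atf3, 10 of 21627 mouse protein-coding genes. They were measured by every deposited peak that overlapped the gene or the 5 kb on either side of it in mm10. This gave 97 of 53940 CFP1 peaks and 207 of 180880 H3K4me3 peaks, each summed over 12 peak lists. The lists came from group 3 innate lymphoid cells (ILC3s), the lymphocytes of the gut wall that make interleukin-22, sorted from mouse small intestine into CCR6+, NKp46+ and DN subsets. Mice with floxed Cxxc1 alleles and a Cre (here KO) were compared with Cxxc1flox/flox mice (here WT), so both genotypes carry the floxed alleles and KO adds the Cre. CUT&Tag, in which an antibody brings a transposase to chromatin, was run with antibodies to CFP1 and to H3K4me3. Each of the 12 groups of antibody, genotype and subset held 2 libraries of 100000 cells. The labels put the mice at 6 to 8 weeks, while their protocols also speak of aged and young mice and of a culture medium. They do not say whether animals were pooled or whether a replicate is another animal. The tests therefore set differences against the spread of these libraries alone, and that spread may be technical.

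AP-1 is a dimeric transcription factor built from a Jun protein paired with a Fos, Batf or Atf protein through a leucine zipper, with a basic region that contacts DNA. Fos, Fosb, Jun, Junb and Atf3 are immediate-early genes, switched on within minutes by growth factor, cytokine or stress signals through MAP kinases. In lymphocytes Batf pairs with Jun proteins and binds beside IRF4. CFP1, the product of Cxxc1, binds unmethylated CpG dinucleotides and is a subunit of the SET1 complexes, which trimethylate lysine 4 of histone H3 (H3K4me3), a mark found at the starts of active genes.

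The 250 bases before the annotated start are shown for 5 of the genes, chosen to span low and high CpG content and CFP1 called over, before or past the start. Sequences are from RefSeq on GRCm38.p6, the assembly of mm10, read 5′ to 3′ on the strand of the gene, with each CpG in capitals. Of the 10 genes, 9 matched the promoter table.
Jun, chr4:95052223-95052472, minus strand: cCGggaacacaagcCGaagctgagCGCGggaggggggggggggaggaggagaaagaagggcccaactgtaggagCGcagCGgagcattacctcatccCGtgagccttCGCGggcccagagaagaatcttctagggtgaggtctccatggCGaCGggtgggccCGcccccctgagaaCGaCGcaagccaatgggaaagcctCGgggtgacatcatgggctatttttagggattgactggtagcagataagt
Fos, chr12:85473640-85473889, plus strand: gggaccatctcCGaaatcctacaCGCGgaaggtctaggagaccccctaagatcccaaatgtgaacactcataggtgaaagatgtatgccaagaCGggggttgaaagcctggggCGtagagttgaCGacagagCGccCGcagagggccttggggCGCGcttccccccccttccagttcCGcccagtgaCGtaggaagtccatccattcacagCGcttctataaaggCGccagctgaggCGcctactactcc
Atf3, chr1:191183334-191183583, minus strand: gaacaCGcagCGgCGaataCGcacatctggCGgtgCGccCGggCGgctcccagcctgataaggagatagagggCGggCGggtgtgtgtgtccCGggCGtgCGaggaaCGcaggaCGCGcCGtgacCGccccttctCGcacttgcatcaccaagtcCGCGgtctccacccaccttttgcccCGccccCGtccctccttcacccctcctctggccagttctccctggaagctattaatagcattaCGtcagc
Batf3, chr1:191098164-191098413, plus strand: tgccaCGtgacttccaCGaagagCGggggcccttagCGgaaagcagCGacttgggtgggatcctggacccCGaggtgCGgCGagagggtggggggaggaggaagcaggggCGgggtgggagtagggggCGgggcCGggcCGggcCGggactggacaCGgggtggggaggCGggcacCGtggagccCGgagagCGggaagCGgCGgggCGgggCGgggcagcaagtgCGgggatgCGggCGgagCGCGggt
Jund, chr8:70697489-70697738, plus strand: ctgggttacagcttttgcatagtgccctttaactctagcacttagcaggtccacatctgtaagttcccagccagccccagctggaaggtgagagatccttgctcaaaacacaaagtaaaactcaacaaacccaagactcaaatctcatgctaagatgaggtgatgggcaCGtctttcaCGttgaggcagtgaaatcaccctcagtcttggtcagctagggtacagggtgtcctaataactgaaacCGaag

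The Batf3 window held 27 CpGs, Atf3 24, Fosl2 23, Junb 20, Fosb 19, Fos 15, Jun 15, Batf 7 and Jund 3. The median over 17273 promoters of coding genes was 10 CpGs. It was 20 for the 2063 genes with CFP1 in all 6 WT libraries, 14 for the 1978 genes with H3K4me3 in all 12 libraries and CFP1 in 0 WT libraries, and 3 for the 7659 genes with H3K4me3 in 0 libraries. For these classes alone a peak was counted within 1 kb of either end of the gene. In the window of 5 kb used elsewhere, Batf3 had the most CpGs among the 9 genes but CFP1 in 2 of 6 WT libraries. Jund had the fewest CpGs but CFP1 in all 6. The AP-1 motif TGANTCA, searched on both strands, was in 0 of the 9 windows and in 6.27% of all promoters. The CRE-like motif TGANNTCA, searched the same way, was found in the Jun window as TGACATCA and in the Jund window as TGAAATCA, and in 10.9% of all promoters.

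The lists give peaks and no read totals, so depth is unknown and a gene without a peak may still carry signal. Between 745 and 8931 peaks were listed per CFP1 library and between 11834 and 18162 per H3K4me3 library, and no 2 lists were identical. The 6 WT CFP1 libraries put a peak at 5303 to 7044 coding genes. Of the KO CFP1 libraries, 4 put a peak at 928 to 1785 genes, while KO NKp46+ replicate 2 reached 4438 and KO DN replicate 2 reached 7176, above every WT library. These 2 CFP1 lists stand apart from the other KO lists. KO DN replicate 2 does not show the loss its label implies. KO NKp46+ replicate 2 lay below every WT library in genes with a peak, but well above the other 4 KO libraries. The tests of CFP1 calls and the counts by list are therefore also given without these 2 lists. Counts of libraries per CFP1 region include them. The file names carry a date-like code shared by all 6 libraries of an antibody and replicate number, so values within a replicate number are also within that code. Of 10 ILC3 markers, 4 had H3K4me3 in all 12 libraries, with 8 to 9 per WT library and 4 to 8 per KO library; Il23r and Ccr6 had it in 6 WT and 1 KO libraries, and Il22 in 0. Markers of other cells, as genes with H3K4me3 per WT and KO library, were 4 to 6 and 3 to 6 of 6 for T cells, 1 and 1 of 5 for B cells, 1 to 2 and 1 to 4 of 6 for myeloid cells, 2 to 3 and 1 to 4 of 6 for epithelium, 2 to 4 and 1 to 4 of 5 for stroma and endothelium, and 2 to 4 and 1 to 4 of 5 for NK cells and ILC2s. Among these, Ms4a1, Pax5, Cd22, Csf1r, Vil1, Krt20, Cdh5 and Klrg1 were at 0 in all 12 libraries. The part of other cells in the AP-1 values was not tested.

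CFP1 was called at all 10 AP-1 genes in at least 2 WT libraries, and at Fos, Fosl2, Jun, Jund and Atf3 in all 6 WT libraries. Over all coding genes, 14.7% had CFP1 in all 6 WT libraries, and the share in at least 2 was not computed. Single WT libraries had CFP1 at 6 to 10 of the 10 genes, and at 24.5% to 32.6% of all coding genes. In KO, CFP1 was called at Fosl2, Jun and Jund in 4 of 6 libraries, at Atf3 in 3, and at each of the other 6 genes in 2. None of the 10 genes passed Fisher's exact test of 6 WT against 6 KO libraries, adjusted by Benjamini-Hochberg over 7708 genes. That test called 0 genes in all, 0%, with 495 genes at an unadjusted p under 0.05, all with fewer KO libraries. The smallest adjusted p of any gene in Fisher's exact test was 0.236. Fosb, Fosl1, Junb, Batf and Batf3 had CFP1 in 4 or fewer WT libraries, so even 0 KO libraries would have left their p above 0.05. For these genes the test cannot decide whether CFP1 was lost. CFP1 was called in fewer KO than WT libraries at 9 of the 10 genes, against 88.7% of the genes tested, and in at least 3 fewer at Fos and Atf3, against 49.9%. The first share is near that of all genes and the second lies below it. Without KO NKp46+ and KO DN of replicate 2, all 10 genes had CFP1 in a smaller share of KO than of WT libraries, as did 99.3% of the genes then tested.

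**Figure D1:**
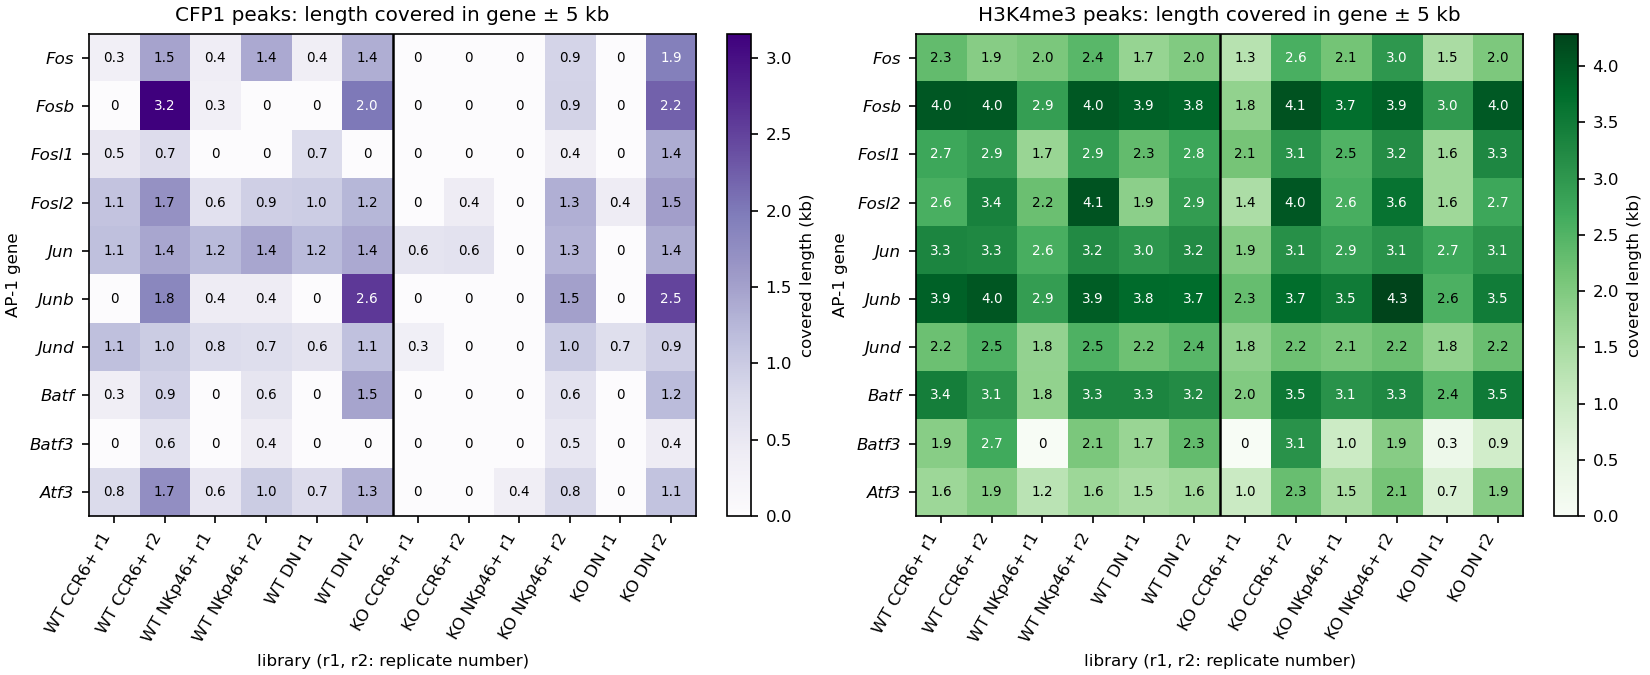
Length in kb covered by CFP1 peaks (left) and H3K4me3 peaks (right) within each AP-1 gene and 5 kb on either side, for the 6 WT and 6 KO libraries of each antibody (r1 and r2 are the replicate numbers). H3K4me3 is present in every cell except 2 of Batf3, whereas CFP1 is at 1 or 2 of the 10 genes in 4 KO libraries and at all 10 in KO NKp46+ r2 and KO DN r2.

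Fos, whose protein is the prototype partner of Jun, showed the largest difference in CFP1 calls between genotypes. CFP1 peaks covered 323 and 1477 b at Fos in WT CCR6+ replicates 1 and 2, 394 and 1403 b in WT NKp46+, and 367 and 1353 b in WT DN. They covered 0 b in both KO CCR6+ libraries, 0 and 872 b in KO NKp46+ replicates 1 and 2, and 0 and 1916 b in KO DN. All 6 WT libraries thus had a peak, every WT replicate 2 was longer than every WT replicate 1, and 4 of 6 KO libraries had none. The exact test of 6 against 2 libraries gave p = 0.0606 and an adjusted p of 0.301. Within replicate 1 Fos had CFP1 in 3 WT and 0 KO libraries, and within replicate 2 in 3 WT and 2 KO libraries. Without KO NKp46+ and KO DN of replicate 2, an alternative chosen after their peak numbers were seen, Fos had CFP1 in 6 of 6 WT and 0 of 4 KO libraries (Fisher's exact p = 0.00476, adjusted p = 0.0348), and 979 of the 7162 genes then tested were called (13.7%). Of the other 9 AP-1 genes none passed without these libraries, and Atf3 then had an adjusted p of 0.127. Both libraries were left out for their many CFP1 peaks, the quantity tested. These p-values therefore lean towards fewer KO calls and cannot decide whether CFP1 was lost.

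Atf3, a stress-induced factor that represses many inflammatory genes, was the next in order. CFP1 peaks covered 756 and 1740 b in WT CCR6+, 552 and 981 b in WT NKp46+ and 736 and 1286 b in WT DN, replicate 1 first. In KO they covered 0 b in both CCR6+ libraries, 355 and 822 b in NKp46+, and 0 and 1106 b in DN. The KO calls were fewer and their lengths overlapped the WT range. Fisher's exact test gave p = 0.182 and an adjusted p of 0.467.

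Among the Jun genes, Jun and Jund kept CFP1 in 4 KO libraries each. The Junb window also reaches Prdx2 and the Jund window Iqcn, so lengths there may include peaks of these neighbours. Jun, the founding member of the family, had 1140 to 1442 b of CFP1 in the 6 WT libraries. In KO it had 571 and 606 b in CCR6+, 0 and 1278 b in NKp46+, and 0 and 1364 b in DN, replicate 1 first. The 2 CCR6+ values lay below every WT value, and both replicate 2 values of the other subsets lay within the WT range. Jund, the family member expressed most steadily in resting cells, had 598 to 1147 b in WT, and in KO 340 and 0 b in CCR6+, 0 and 993 b in NKp46+, and 686 and 932 b in DN. Fisher's exact p was 0.455 and the adjusted p 0.698 for each of Jun, Jund and Fosl2. Junb, which opposes Jun at some targets and supports cytokine programs in T helper cells, had CFP1 in 4 WT and 2 KO libraries. Its lengths were 0 and 1827 b in WT CCR6+, 414 and 418 b in WT NKp46+, and 0 and 2601 b in WT DN, against 1515 b and 2485 b in KO NKp46+ and KO DN replicate 2 and 0 b in the other 4 KO libraries.

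Among the other Fos genes, Fosl2, which encodes FRA2, had CFP1 in all 6 WT libraries (638 to 1701 b). In KO it had 402 b in CCR6+ replicate 2, 1341 b in NKp46+ replicate 2, 408 b in DN replicate 1 and 1522 b in DN replicate 2, and 0 b in the other 2 libraries. Fosb and Fosl1, the latter encoding FRA1, had CFP1 in 3 WT and 2 KO libraries each. The Fosb lengths in WT were 3160 b in CCR6+ replicate 2, 327 b in NKp46+ replicate 1 and 2002 b in DN replicate 2. Those of Fosl1 in WT were 521 and 731 b in CCR6+ replicates 1 and 2 and 748 b in DN replicate 1. All of the 731 b and 369 of the 748 b lay past the far end of Fosl1, in a window that also holds Ccdc85b and Fibp, and a region over the lower end of the gene itself was called in 2 WT and 2 KO libraries. Of the Batf genes, Batf had CFP1 in 4 WT libraries (346 to 1459 b) and Batf3, needed for a class of cross-presenting dendritic cells, in 2 (606 b in CCR6+ replicate 2 and 416 b in NKp46+ replicate 2). For Fos, Fosb, Fosl1, Junb, Batf and Batf3, every KO library with CFP1 was NKp46+ or DN of replicate 2. Both of these libraries had CFP1 at all 10 AP-1 genes; 19.3% of all coding genes, and 41.8% of those with CFP1 in any library, had it in both.

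The CFP1 peaks of the 5 genes with CFP1 in all WT libraries lay in different places relative to the annotated start. At Fos they formed a region over the start, with a median summit 170 b before it, in 5 WT and 2 KO libraries. A further Fos region upstream, with a median summit at -1461 b, was called in 4 WT and 1 KO libraries. At Atf3 the region covered the start, with a median summit at -260 b. At Fosl2 it lay wholly before the start, with a median summit at -882 b, and at Jun it ran from a median of -1081 b to 179 b past the start. At Jund it lay inside the gene, with a median summit 928 b past the annotated start and a median near edge at 709 b. These windows therefore differ in how much of the CFP1 region the 250 printed bases hold: the Fos and Atf3 stretches lie under it, while the Fosl2 and Jund stretches lie outside it at the median borders.

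The fold enrichment of a peak is the authors' value and was ranked only within its own list. The Fosl2 region ranked highest, with a median percentile of 70.9. Median percentiles were 48.4 at Jun, 46.03 at Jund, 45.3 at Atf3 and 24.1 at the Fos start. The start-proximal Junb region, summit at -1120 b, had a median percentile of 2.93, and a region past the Junb gene 0.12. Low ranks also marked a region near the far end of Fosb (median percentile 0.97) and a region before Fosl2 with its median summit at -3074 b (0.56). The Fosb and Fosl2 regions and the region past Junb were called only in replicate 2 libraries, of both genotypes. Of the 97 CFP1 peaks, 86 overlapped an H3K4me3 peak of the same genotype and subset, in either replicate, by 1 b or more. The other 11 were at Fos (3), Fosb (3), Batf3 (3), Jund (1) and Atf3 (1). The share over all CFP1 peaks was not computed, so these counts cannot be read as particular to the AP-1 genes.

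**Figure D2:**
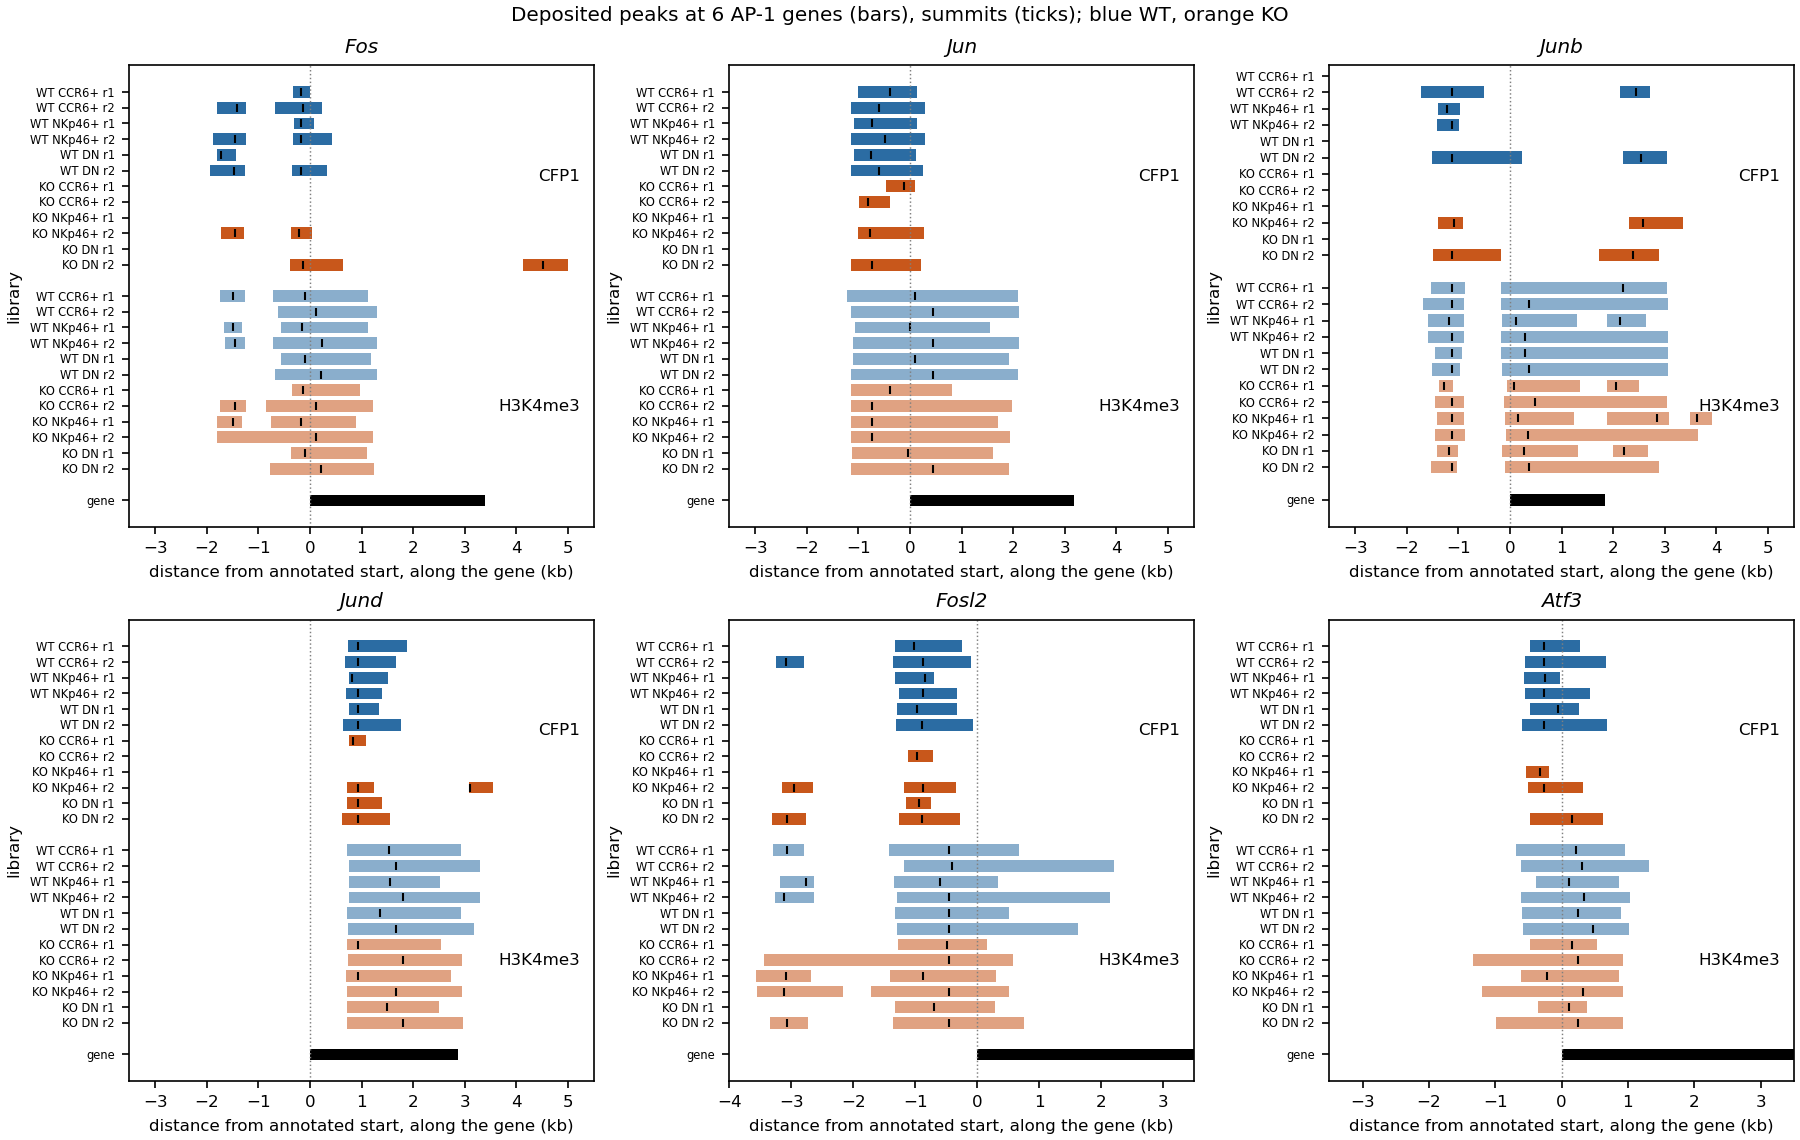
Deposited peaks as bars, with summits as ticks, for 24 libraries at 6 AP-1 genes, by distance in kb from the annotated start in the direction of the gene (blue WT, orange KO, lighter bars H3K4me3, black bar the gene). CFP1 covers the start of Fos and Atf3 but lies before that of Fosl2 and inside Jund, and the H3K4me3 domain of Jund begins past its annotated start in all 12 libraries.

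H3K4me3 was called at 9 of the 10 genes in all 12 libraries, KO CCR6+, NKp46+ and DN included. Over all coding genes, 50.5% had it in all 12. Batf3 had it in 5 WT and 5 KO libraries and was absent from WT NKp46+ replicate 1 and KO CCR6+ replicate 1. In KO DN replicate 1 the Batf3 window held only a 270 b peak inside the gene. No gene passed Fisher's exact test for H3K4me3 calls with Benjamini-Hochberg adjustment over the 2109 genes tested (0%, 31 at an unadjusted p under 0.05), and Batf3 had an exact p of 1. Its lengths, 1907 and 2686 b in WT CCR6+, 0 and 2059 b in WT NKp46+, 1701 and 2319 b in WT DN, 0 and 3090 b in KO CCR6+, 974 and 1926 b in KO NKp46+ and 270 and 888 b in KO DN, spanned 0 to 3090 b and overlapped between the genotypes.

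The covered length of H3K4me3 within each window was then compared after dividing by the median of its library, that is, on a log2 scale less the library median. The WT library medians had a geometric mean of 1408 b and the KO medians 1357 b. The differences are given relative to this shift of -0.05 (log2). Of 10931 genes with H3K4me3 in all 12 libraries, limma called 32 between KO and WT at an adjusted p under 0.05 (0.293%), or 80 (0.732%) with the replicate number as a block. None of the 9 AP-1 genes tested was among them in either fit, and none had an unadjusted p under 0.05, against 9.76% of all genes. Their log2 differences, KO less WT, had a median of -0.08 and were lower in KO for 6 of 9, against a median of -0.01 and 52.7% lower over all genes tested. The WT and KO ranges of centred values overlapped for all 9 genes, and for all but 1.39% of all genes.

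Junb, whose window also reaches Prdx2, and Fosb had the 2 lowest differences. Raw H3K4me3 lengths at Junb were 3891 and 4039 b in WT CCR6+, 2909 and 3949 b in WT NKp46+ and 3768 and 3747 b in WT DN, replicate 1 first. In KO they were 2280 and 3735 b in CCR6+, 3493 and 4288 b in NKp46+ and 2552 and 3476 b in DN. The lowest values of each genotype were of replicate 1, and the highest of all 12 was a KO library. The centred difference at Junb was -0.14 ± 0.09 (log2, SE; 95% interval -0.33 to 0.05), with a limma adjusted p of 0.687, or 0.426 with the block. Fosb measured 2888 to 4026 b in WT and 1783 to 4091 b in KO, and its centred difference was -0.14 ± 0.12 (limma adjusted p = 0.831). With each library left out in turn the difference ran from -0.20 to -0.04 at Fosb and from -0.19 to -0.09 at Junb.

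For Fos, the gene with the largest difference in CFP1 calls, H3K4me3 covered 2327 and 1923 b in WT CCR6+, 2049 and 2412 b in WT NKp46+ and 1735 and 1980 b in WT DN. In KO it covered 1306 and 2585 b in CCR6+, 2132 and 3013 b in NKp46+ and 1485 and 2029 b in DN. KO held both the lowest and the highest value. The centred difference was 0.02 ± 0.11 (95% interval -0.21 to 0.25, limma adjusted p = 0.988). Within replicate 1 it was -0.21 and within replicate 2 it was 0.24, with limma adjusted p of 0.999 and 0.247.

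Atf3 likewise changed sign between the replicate numbers. Its 12 lengths ran from 1243 to 1932 b in WT and from 743 to 2266 b in KO. The centred difference was -0.05 ± 0.14 (limma adjusted p = 0.979), with -0.36 within replicate 1 and 0.26 within replicate 2 (limma adjusted p = 0.999 and 0.163). Jund measured 1762 to 2541 b in WT and 1788 to 2246 b in KO and differed by -0.09 ± 0.09, with 0.00 within replicate 1 and -0.19 within replicate 2 (limma adjusted p = 0.172). Jun measured 2607 to 3301 b in WT and 1946 to 3122 b in KO and differed by -0.11 ± 0.10.

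Batf3 entered only a fit over genes with H3K4me3 in 6 or more libraries, with 100 b added to each length, and differed there by -0.68 (limma adjusted p = 0.925), the 2 libraries at 0 b included. Differences at the remaining genes were -0.08 ± 0.12 for Fosl2, 0.08 ± 0.08 for Fosl1 and 0.03 ± 0.10 for Batf (log2, SE). Some values depended on how length was measured. In a window of 1 kb the difference at Fosl2 was -0.51 (95% interval -0.85 to -0.16, limma adjusted p = 0.311). For the widest peak alone it was 0.20 at Fosl1 (interval 0.02 to 0.37, limma adjusted p = 0.512), -0.32 at Junb and -0.26 at Fosb. In the main measure each 95% interval of the 9 genes held 0, and the widest, of Fosl2 and Atf3, ran from -0.36 to 0.19 and from -0.35 to 0.26. The adjusted p-values do not show that the genotypes are alike at these genes; they show no difference beyond the spread of these libraries. The SD of the centred lengths over the 12 libraries was 0.14 to 0.28 for the 9 genes, against a median of 0.18 over all genes tested.

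**Figure D3:**
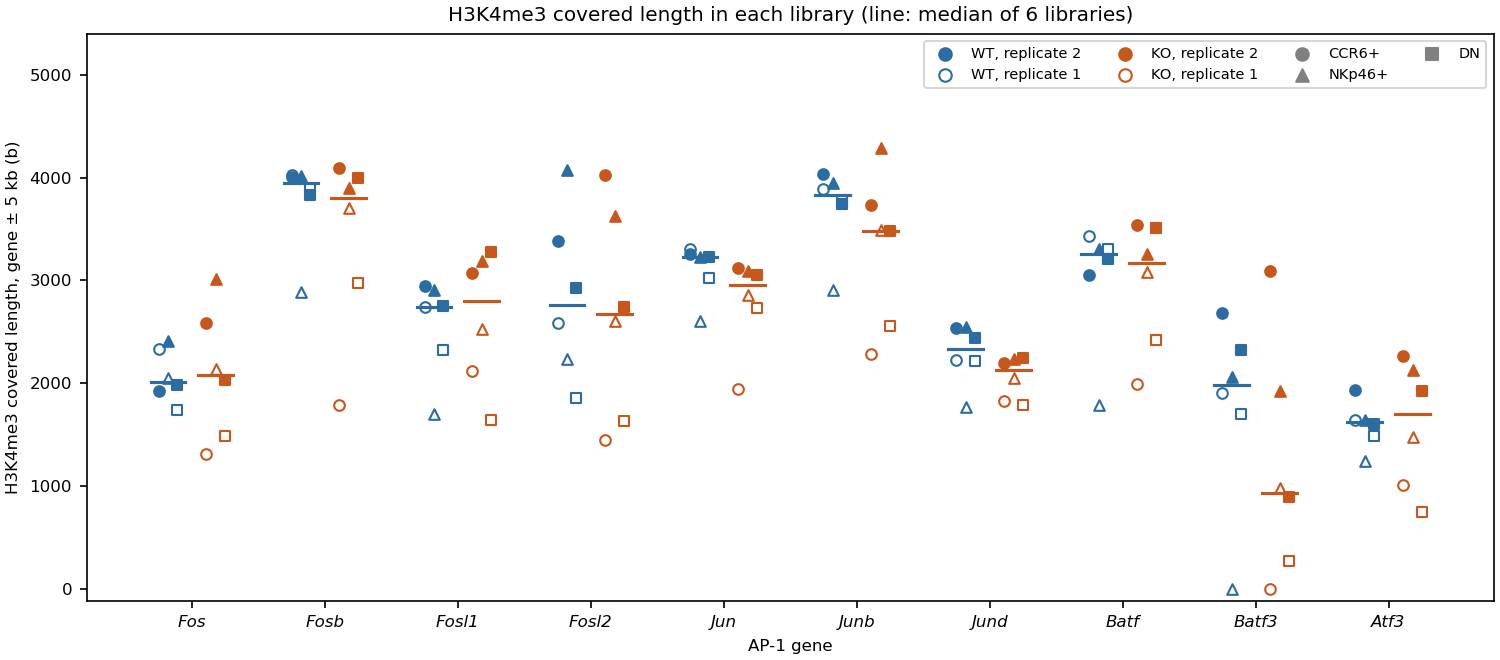
H3K4me3 covered length in b within each AP-1 gene and 5 kb on either side in each of 12 libraries, as deposited and not centred (blue WT, orange KO, open replicate 1, filled replicate 2, shape the subset, line the median of 6 libraries). WT and KO libraries overlap at every gene, and every replicate 2 library of Fosl1 and Fosl2 is longer than every replicate 1 library.

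Replicate 2 libraries gave longer H3K4me3 domains. At Fosl1 and Fosl2 every replicate 2 library was longer in b than every replicate 1 library, whatever the genotype. The same held for 54.2% of all genes tested. At Fosl2 replicate 1 ran from 1446 to 2607 b and replicate 2 from 2738 to 4072 b. At Fosl1, whose window also holds Ccdc85b and Fibp, replicate 1 ran from 1640 to 2737 b and replicate 2 from 2752 to 3272 b. Its H3K4me3 comprised a region over the lower end of the gene and regions past its far end, with median summits 9658 and 13081 b from that lower end, each in all 12 libraries. Fosb also had a region past its far end, with a median summit 9039 b from the start, in 6 WT and 5 KO libraries.

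Between subsets, Fos and Fosl2 had longer centred H3K4me3 in NKp46+ than in DN cells, without passing the adjusted test. The Fos values given above place both NKp46+ libraries above the DN library of the same replicate number in each genotype. The difference at Fos, NKp46+ less DN, was 0.39 ± 0.13 (log2, SE), with a limma p of 0.0114 and an adjusted p of 0.801, or 0.419 with the replicate block. Fosl2 measured 2233 and 4072 b in WT NKp46+ and 1853 and 2925 b in WT DN, and 2607 and 3623 b against 1626 and 2738 b in KO. Its difference was 0.45 ± 0.15, with a limma p of 0.0139 and an adjusted p of 0.835, or 0.251 with the block. With the window narrowed to 1 kb on each side the differences were 0.06 at Fos and -0.03 at Fosl2, and for the widest peak alone they were 0.19 and 0.08, so neither is stable to how length is measured. Of all genes, 0% passed the adjusted test for this contrast and 4.75% had an unadjusted p under 0.05. In both other subset contrasts no AP-1 gene had a limma p under 0.05, against 2.93% of genes for CCR6+ against NKp46+ and 4.11% for CCR6+ against DN. Of all genes, 1 (CCR6+ against NKp46+, 0.00915%) or 0 (CCR6+ against DN) passed the adjusted test. No gene passed the test that the genotype difference varied with subset, and the p-values of the 9 AP-1 genes in it ran from 0.317 to 0.966.

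**Figure D4:**
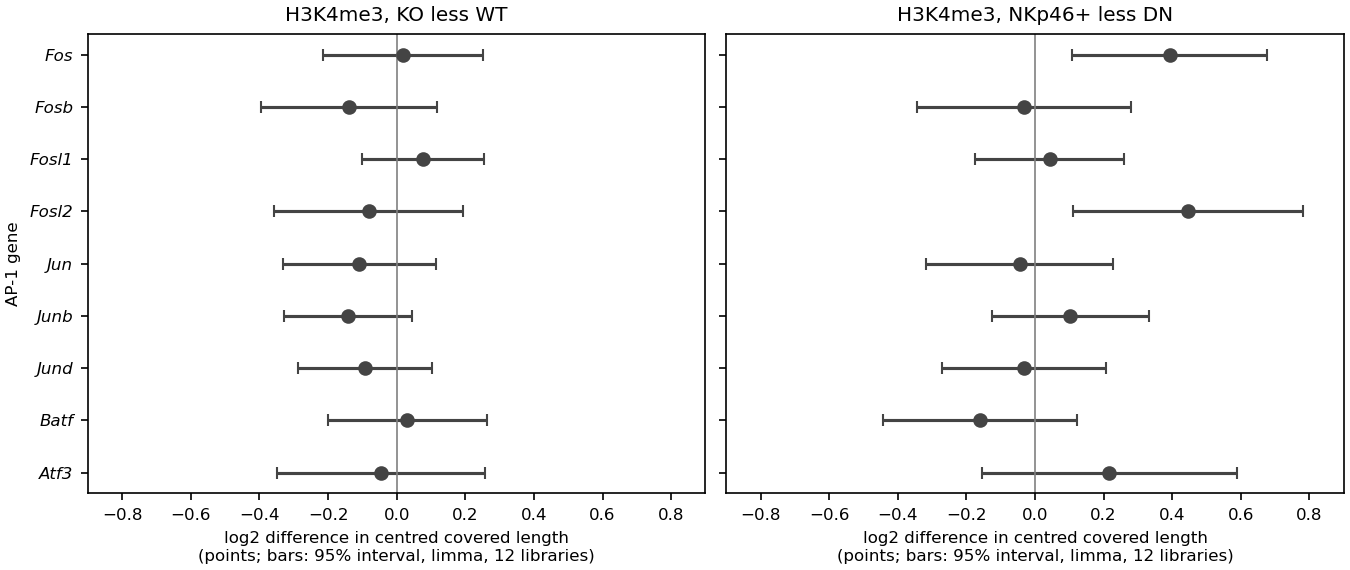
Log2 difference in centred H3K4me3 covered length for the 9 AP-1 genes with H3K4me3 in all 12 libraries, KO less WT (left) and NKp46+ less DN (right); points are limma estimates and bars their 95% intervals. All KO less WT intervals hold 0, and only those of Fos and Fosl2 lie above 0 for NKp46+ less DN, unadjusted for the number of genes.

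The AP-1 genes differed among themselves in the shape of their H3K4me3 domains. The widest peak at Jun was 1946 to 3301 b, wider than 99.0% to 99.9% of peaks in the same list, while its fold enrichment ranked between percentiles 11.3 and 33.2. Junb was more extreme: its widest peak was 1336 to 3718 b, at percentiles 83.9 to 99.9 of width and 0.58 to 5.02 of fold enrichment. Among peaks at least as wide in the same list, 0% to 4.65% had a lower fold enrichment than Junb. Wide peaks had low ranks of fold in general, with a median percentile of 9.39 to 52.1 for the peaks as wide as Junb's, and Junb lay below that median in each list. In all 6 replicate 2 libraries and in replicate 1 of WT CCR6+ and WT DN the Junb domain was a single peak of 2971 b or more. In the other 4 libraries, WT NKp46+ and all KO libraries of replicate 1, it was broken into shorter peaks.

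Fosb, Fosl2 and Jund had wide domains of intermediate fold. Median widths of the widest peak were 2538 b at Fosb, 2105 b at Fosl2 and 2216 b at Jund, and median fold percentiles were 20.5, 17.9 and 20.4. Fos (1887 b), Batf3 (1917 b in 10 libraries) and Atf3 (1625 b) were narrower, with median fold percentiles of 33.1, 31.2 and 36.2. Batf and Fosl1 had the lowest median widths, 1560 b and 1227 b, and the highest median fold percentiles, 53.1 and 53.2. In WT NKp46+ replicate 1, both WT DN libraries and KO DN replicate 1 the widest peak of the Fosl1 window lay past the gene, in the stretch that also holds Ccdc85b and Fibp. The H3K4me3 domain of Jund ran from a median of 719 b to 2935 b past the annotated start, so it began where CFP1 did, inside the gene. Neither mark was called at the annotated start of Jund in any library.

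**Figure D5:**
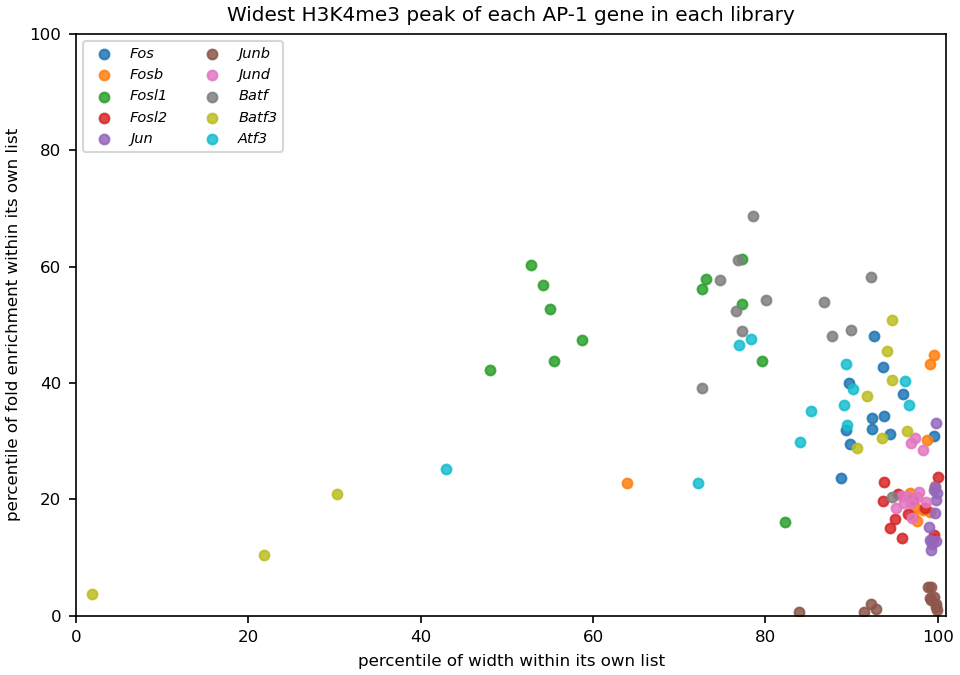
Percentile of fold enrichment against percentile of width, each within its own list, for the widest H3K4me3 peak at each AP-1 gene in each of 12 libraries (10 for Batf3). Junb points lie at the foot of the plot, at or below percentile 5.02 of fold, while Batf and Fosl1 lie higher, with median percentiles of 53.1 and 53.2.

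Batf had 3 separate H3K4me3 regions. The first covered the start in all 12 libraries. A second, with a median summit 11645 b past the start, was called in 5 WT and 5 KO libraries, in 4 of them with the same borders (chr12:85698197-85698576, 380 b, inside Batf). Its fold enrichment lay between percentiles 13.8 and 98.2 of a list, with a median of 69.0, and its width was at most at percentile 20.9. The third, with a median summit 18737 b past the start, was in all 12 libraries and held the CFP1 region called in 4 WT and 2 KO libraries (median summit 18812 b). CFP1 over the start of Batf was called only in WT DN and KO DN of replicate 2.

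The other genes of the pathway were counted in lists named from textbook membership. Of 18 other bZIP genes, which include dimer partners of AP-1 proteins, 15 had H3K4me3 in all 12 libraries, 2 (Atf4 and Mafg) in none, and Batf2 in 1 WT and 1 KO library, where 50.5% of all coding genes had it in all 12. CFP1 was in fewer KO libraries at 13, in more at 1 and equal at 4, with a median difference of 2 libraries. Atf2, which pairs with Jun at CRE-like sites, had CFP1 in 6 WT and 2 KO libraries, and Bach1, a haem-sensing repressor, in 5 and 1. Of 18 MAP kinase cascade genes and nuclear effectors, which carry the signals that induce and phosphorylate AP-1, CFP1 was in fewer KO libraries at 13 and in more at 2, with a median of 2.5, and 17 had H3K4me3 in all 12 libraries, with Map2k1 in none. Mapk8, which encodes the Jun kinase JNK1, and Map3k7, which encodes TAK1, had CFP1 in 6 WT and 1 KO libraries each. Map2k4, which activates JNK, had it in 4 WT and 0 KO libraries, and Map3k8, an activator of the ERK branch, in 6 and 2.

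Of 11 dual-specificity phosphatases and other brakes on MAP kinases, 8 had CFP1 in fewer KO libraries and 1 in more, with a median of 2, and all 11 had H3K4me3 in 12 libraries. Spred1 and Spred2, inhibitors of the Ras pathway, had CFP1 in 6 WT and 2 KO libraries each. Of 13 other immediate-early genes, 10 had fewer and 0 more, with a median of 2, and all 13 had H3K4me3 in 12 libraries; Btg2, an antiproliferative gene, had CFP1 in 5 WT and 1 KO libraries. No gene of these lists passed the adjusted test with all 12 libraries. Over all genes tested, those with a peak in 2 to 10 libraries, the share with any fewer KO libraries was 88.7%. The list counts also include genes outside that range, such as Atf4 and Bach2, so they are not on the same base as this share. Without KO NKp46+ and KO DN of replicate 2, CFP1 was in a smaller share of KO than of WT libraries at 13 of the 18 bZIP genes, 14 of the 18 cascade genes, 8 of the 11 brakes and 11 of the 13 immediate-early genes, and in a larger share at 0. Atf2, Mapk8, Map3k7, Map3k8 and Spred2, each with CFP1 in 6 of 6 WT and 0 of 4 KO libraries, then passed (Fisher's exact p = 0.00476, adjusted p = 0.0348), as did 13.7% of all genes tested. Both libraries were left out after their CFP1 peak numbers were seen. The p-values without them therefore lean towards fewer KO calls and cannot decide whether CFP1 was lost.

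Fos, the AP-1 gene with the largest WT less KO difference in CFP1 calls, shared its calls in all 24 libraries with 625 coding genes. By the distance of their centred log2 H3K4me3 lengths over the 12 H3K4me3 libraries, the 3 most alike were Hivep1 (root mean square 0.13), Metap1 (0.16) and Tmem260 (0.17). CFP1 lengths did not enter this distance.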

How the data were processed

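Per the labels, each library is a CUT&Tag sample of sorted ILC3s, and genotype, subset, antibody and replicate number come from the sample titles. The submitters' processing notes name fastp 0.19.7, Bowtie2 2.3.5.1, Picard, MACS2 2.2.7.1, ChIPseeker 1.28.3 and mm10; the sources used here do not give their settings or any control library. Each narrowPeak list, deposited by the authors for 1 library, holds for each peak its position, its fold enrichment (a ratio) and −log10 p-values and q-values, with every q at most 0.05. The number of reads behind a list is unknown. Deeper sequencing can yield more and wider peaks, which is why lengths were centred on the library median.

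Genes were taken from the RefSeq table of GRCm38.p6 (21627 coding genes on 19 autosomes and X), widened by 5000 b on each side, and a peak counted with an overlap of 1 b. Distances follow the strand of the promoter table; Fosl1 has no entry there, and its distances were taken from its lower coordinate. Calls were compared by two-sided Fisher's exact test in genes with a peak in 2 to 10 of 12 libraries, and covered lengths with limma 3.58.1 (R 4.3.3) on genotype and subset, both adjusted by Benjamini-Hochberg at 0.05 over all genes tested. Scripts used Python 3.11.15, pandas 2.3.3 and SciPy 1.17.1 and were tested on simulated data. The replicate numbers were taken to pair the samples, since all correlations between subsets and genotypes of their deviations in H3K4me3 length were 0.19 to 0.65. The main tests nevertheless hold no replicate term, so their errors, intervals and p-values leave this pairing out. It entered only alternatives, such as the replicate block. The AP-1 genes, lists, marker genes, windows and naming rule were chosen with earlier results of these data known. All 10 AP-1 genes are named, with list genes that differ by at least 4 libraries (at most 4 a list) and the 3 genes most like the AP-1 gene with the largest difference in calls. Some items of the labels and marker lists are not reported here, and the counts over a list include every member.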

Additional observations from a re-analysis of the deposited data

Results flagged for a closer look

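H3K4me3 covered length was examined in 20 groups of 6 libraries (10 genes in 2 genotypes). A single library stood apart from the other 5 in 5 cases. The nominal rate is about 1 in 20 for independent groups, but the genes of a genotype share the same libraries. The share over all coding genes was not computed, so the 5 cases cannot be read as particular to AP-1 genes. Of the 5 cases, 4 were WT NKp46+ replicate 1: Fosb had 2888 b there, Junb 2909 b, Batf 1789 b and Batf3 0 b, each the lowest of the WT libraries. The fifth was KO CCR6+ replicate 1, where Jun had 1946 b, the lowest of the KO libraries. These lengths are not centred, and WT NKp46+ replicate 1 had the shortest WT list, with 12878 peaks, and KO CCR6+ replicate 1 the shortest KO list, with 11834. Median covered lengths over all genes tested were 1068 b in WT NKp46+ replicate 1 and 1012 b in KO CCR6+ replicate 1, the lowest of each genotype. The part of list length in the AP-1 values was not tested.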

How the results depend on the processing

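No depth can be read from peak lists, and 2 libraries a group limit every contrast within a subset. For CFP1 calls, 0 genes passed with Fisher's exact test (495 at an unadjusted p under 0.05), 0 to 340 when each library was left out in turn, with 340 without KO DN replicate 2, and 979 without KO NKp46+ and KO DN of replicate 2 together. Fos then passed (adjusted p = 0.0348), though both libraries were left out for their many CFP1 peaks, the quantity tested. With a single library left out its smallest adjusted p was 0.0686. For H3K4me3 calls the count was 0 under each alternative run. For H3K4me3 length, KO against WT, the 32 genes called became 0 without centring, 80 with the replicate block, 9 for the widest peak, 17 in a window of 1 kb, 7 for peaks of fold enrichment 5 or more, 6 to 40 with each library left out, and 0 and 131 within replicates 1 and 2, chosen after seeing the data. The 1 gene called between CCR6+ and NKp46+ became 0 without centring, with 100 b added over genes marked in 6 or more libraries, for the widest peak, for fold enrichment of 5 or more and within either replicate number, and 0 to 1 with each library left out. Counts of 0 became 1 with the replicate block and 1 in the 1 kb window (NKp46+ against DN), and with each library left out 0 to 3 (CCR6+ against DN), 0 to 5 (NKp46+ against DN) and 0 to 5 (genotype by subset). The cause of these shifts was not tested. Of 1231 values of AP-1 genes under the alternatives, 1 newly passed the threshold, that of Fos, 6 changed sign and moved by more than 2 SE, and 72 uncalled log2 differences changed sign in all. The block changed no call at an AP-1 gene.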
